A study of Mus musculus with 217 samples.

Results

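The proteasome is the barrel-shaped protease that breaks down proteins tagged with ubiquitin, and its subunit genes are described here in mouse oocytes and in granulosa cells, the somatic cells around the oocyte. Genes were taken by symbol (Psma, Psmb, Psmc or Psmd followed by a number, without pseudogenes), which gave 39 of the 53619 genes in the count tables. The rule uses the symbols alone. The libraries were made with Smart-seq2, a method for full-length mRNA of very small samples. The groups are 18 granulosa pools in 6 groups of 3, 171 single metaphase II oocytes of C57BL6/129 mice in 10 groups, and 28 single oocytes of C57BL6 mice.

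The granulosa pools came from C57BL6/129 mice. They are old (10 months) knockout with resveratrol, old knockout control, young (2 months) knockout, old wild type (WT) with resveratrol, old WT control and young WT. The knocked-out gene is Tet2, whose product is a dioxygenase that starts the removal of DNA methylation. The labels do not state which cells lack the gene or how it was deleted. Resveratrol, a plant polyphenol, was given at 30 mg per L of drinking water from the age of 2 months, and old controls drank its solvent DMSO. The oocyte groups of the same strain were young knockout (15 oocytes) and young WT (18). Middle-aged (6 months) groups were knockout with resveratrol (20), knockout control (20), WT with resveratrol (14) and WT control (20), and old groups were knockout with resveratrol (15), knockout control (15), WT with resveratrol (14) and WT control (20). The C57BL6 oocytes were old with resveratrol (10), old control (6) and middle-aged control (11), with 1 oocyte left out because its labels disagree. All females were superovulated, with PMSG for granulosa cells and with PMSG and hCG for oocytes.

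Granulosa libraries held 470647 to 20537935 counts, and 5 of them, all 3 young WT pools and young knockout pools 1 and 3, held under 1000000. Oocyte libraries of C57BL6/129 mice held 3386039 to 8775154 counts. Granulosa markers made up 0.110 to 0.548% of the counts of the pools, and oocyte markers 0.520 to 3.503% of the counts of the C57BL6/129 oocytes. Pools labelled knockout did not have less Tet2, with group medians of 15.9 CPM (counts per 1000000 counts of the library) in old knockout with resveratrol, 12.9 in old knockout control and 11.6 in young knockout, against 13.5 in old WT with resveratrol, 13.2 in old WT control and 7.99 in young WT. These pools are therefore called knockout-labelled. The labels name no animals for pools or oocytes, so p-values of granulosa comparisons measure the spread between these pools only. Those of oocyte sums are described with their results. The genotype tag of the young WT oocytes contradicts their titles, and the titles were followed. In oocytes the medians of Tet2 were 0.692 to 1.38 CPM over the 5 knockout groups, against 1.75 to 3.22 CPM over the 5 WT groups.

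The proteasome has a core particle made of stacked rings of alpha and beta subunits. The outer alpha rings (Psma1 to Psma7) gate the entry, and 3 of the beta subunits (Psmb5, Psmb6 and Psmb7) cut the protein chain. In immune cells and under interferon these are exchanged for Psmb8, Psmb9 and Psmb10, which form the immunoproteasome and favour peptides for presentation on major histocompatibility complex class I. Psmb11 takes this place in the thymus, and Psma8 is an alpha subunit of the testis. The regulatory particle binds ubiquitinated proteins and unfolds them with its ATPases (Psmc1 to Psmc6), while the remaining Psmd genes encode its base and lid. Among these Psmd4 is a ubiquitin receptor and Psmd14 the enzyme that removes ubiquitin. Psmd5, Psmd9 and Psmd10 match the symbols but encode assembly chaperones. In growing cells the genes are known to be raised together by the transcription factor Nfe2l1 through antioxidant response elements. Oocytes need the proteasome to degrade cyclin B and securin during meiosis.

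Promoter windows of RefSeq (GRCm38.p6, from 250 bases before the start to 50 after it) were found for 32 of the 39 genes. The letters TGACNNNGC, the core of the antioxidant response element, were searched on both strands without regard to overlap with other motifs, and stood in 5 of the 32 (15.6%), against 14% of all 27025 genes with a window. These were Psmb5, Psmb6, Psmc6, Psmd9 and Psmd12. CCAAT stood in 13 (40.6%), against 41.1% of all genes. The core of the interferon-stimulated response element stood in 3 (9.38%), namely Psmb3, Psmd4 and Psmd9, against 3.99%. The GC box GGGCGG stood in 19 (59.4%), against 38.2% of all genes and 67.2% of the genes tested in granulosa cells that have a window. The motif shares of the proteasome genes were thus close to those of other genes for the first and second. The following windows belong to genes named in the results, and capitals mark TGACNNNGC or CCAAT on either strand, neither of which stood in the windows of Psma5 and Psmb8. Psma5 (chr3:108256676-108256975, plus strand) and Psma2 (chr13:14612992-14613291, plus strand) rose with resveratrol in WT pools. Psmb5 (chr14:54617946-54618245, minus strand) and Psmb6 (chr11:70525107-70525406, plus strand) encode catalytic subunits, and transcripts of the first were at low levels in oocytes. Psmb8 (chr17:34197945-34198244, plus strand) is the immunoproteasome gene that passed between genotypes among old pools with resveratrol, and not among old controls or young pools.
Psma5: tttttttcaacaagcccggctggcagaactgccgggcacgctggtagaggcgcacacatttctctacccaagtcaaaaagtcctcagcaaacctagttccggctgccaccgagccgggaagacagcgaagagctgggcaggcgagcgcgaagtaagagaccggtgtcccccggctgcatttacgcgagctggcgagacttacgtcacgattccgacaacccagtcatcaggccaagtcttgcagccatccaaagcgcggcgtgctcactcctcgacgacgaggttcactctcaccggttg
Psma2: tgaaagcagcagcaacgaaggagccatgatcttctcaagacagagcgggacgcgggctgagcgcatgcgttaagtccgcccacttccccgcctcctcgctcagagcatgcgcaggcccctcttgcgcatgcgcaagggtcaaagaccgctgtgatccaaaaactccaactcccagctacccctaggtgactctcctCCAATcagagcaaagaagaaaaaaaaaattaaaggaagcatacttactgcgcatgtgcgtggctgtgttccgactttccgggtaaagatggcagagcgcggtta
Psmb5: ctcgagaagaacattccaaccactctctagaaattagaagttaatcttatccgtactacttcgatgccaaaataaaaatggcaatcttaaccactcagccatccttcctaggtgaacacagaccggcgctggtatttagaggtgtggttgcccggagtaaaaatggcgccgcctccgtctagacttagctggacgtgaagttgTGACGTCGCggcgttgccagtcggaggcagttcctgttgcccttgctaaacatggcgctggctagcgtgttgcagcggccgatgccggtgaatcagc
Psmb6: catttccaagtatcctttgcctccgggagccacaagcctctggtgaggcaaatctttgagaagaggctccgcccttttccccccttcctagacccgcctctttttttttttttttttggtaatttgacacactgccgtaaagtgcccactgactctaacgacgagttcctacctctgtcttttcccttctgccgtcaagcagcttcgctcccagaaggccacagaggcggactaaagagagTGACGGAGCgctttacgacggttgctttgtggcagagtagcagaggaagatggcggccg
Psmb8: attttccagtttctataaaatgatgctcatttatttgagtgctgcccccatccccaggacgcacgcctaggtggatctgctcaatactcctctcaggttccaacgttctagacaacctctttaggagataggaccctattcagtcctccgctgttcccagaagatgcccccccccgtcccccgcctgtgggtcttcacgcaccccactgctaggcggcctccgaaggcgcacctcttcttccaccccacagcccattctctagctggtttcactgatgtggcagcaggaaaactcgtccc

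Proteasome transcripts took a larger share of the counts in granulosa cells, and their mix differed in oocytes. The 39 genes together made up 0.282 to 0.570% of an oocyte's counts (median 0.388%, n = 171), against 0.585 to 1.01% in the granulosa pools (median 0.897%, n = 18). No oocyte reached the lowest pool. In bulk samples fewer cells of a type and less RNA per cell cannot be told apart, and a single oocyte and a pool of granulosa cells also differ in their starting material, so these are shares of each library and not amounts per cell.

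Genes at a median of 1 CPM or more in either cell type numbered 38 (all but Psmb11). For 22 of them (57.9%) every oocyte lay below every pool, against 22.4% of the 17301 genes at this level. For 2 of them (5.26%), Psmd1 and Psmd11, every oocyte lay above every pool, against 16% of genes. Cell type and library input cannot be told apart here, and no test was run on this comparison.

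Of the catalytic genes, Psmb5 and Psmb7 had low transcript levels in oocytes and Psmb6 did not. Psmb5, the chymotrypsin-like subunit, had a median of 1.84 CPM in oocytes (lowest 0, highest 13.3), against 333 CPM in pools (lowest 217, highest 498). Psmb7, the trypsin-like subunit, had a median of 1.83 CPM in oocytes (lowest 0, highest 11.4), against 310 CPM in pools (lowest 184, highest 380). Psmb6, the caspase-like subunit, kept a median of 104 CPM in oocytes (lowest 63.6, highest 162), against 462 CPM in pools (lowest 246, highest 572). Transcript levels of the 3 catalytic genes were therefore unequal in oocytes, and none of the 3 overlapped between cell types. Protein was not measured, so the make-up of the core particle is not known from these values. Reads of Psmb7 and the overlapping Nek6 cannot be told apart because the use of strand in counting is not given. Psmb5 and the overlapping Mir686 lie on the same strand, so strand would not separate their reads. The pseudogenes Psmb5-ps, Psmb6-ps2 and Psmb7-ps2 had oocyte medians of 0, 0.404 and 0.228 CPM, so the missing counts were not found under those symbols.

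Immunoproteasome genes were expressed in granulosa cells and close to absent in oocytes. Psmb8 had counts in 34 of the 171 oocytes and at most 3.93 CPM, against 34.7 to 93.7 CPM in the pools. Psmb9 had counts in 12 oocytes and at most 1.86 CPM, against 2.77 to 34.4 CPM in the pools. Psmb10 had counts in 53 oocytes and at most 2.07 CPM, against 20.3 to 72.3 CPM in the pools. Every oocyte lay below every pool for each of the 3 genes. Exons of Psmb9 overlap Tap1 and those of Psmb8 overlap Gm20496. Psma8 had counts in 55 oocytes (at most 1.62 CPM), against 0 to 8.50 CPM in the pools, where it overlapped. Psmb11 had a median of 0.229 CPM in oocytes, and in pools its highest value was 0.195 CPM with a median of 0.

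Transcripts of some subunits were high in oocytes. Psma7, an alpha ring subunit, had a median of 860 CPM in oocytes (lowest 373, highest 1503), against 404 CPM in pools (lowest 242, highest 551). Psma2, another alpha subunit, had a median of 744 CPM in oocytes (lowest 343, highest 1253), against 508 CPM in pools (lowest 312, highest 722). Psmd1, the large scaffold of the regulatory base, had a median of 406 CPM in oocytes (lowest 219, highest 582), against 120 CPM in pools (lowest 92.5, highest 145). Both alpha genes overlapped between the cell types and Psmd1 did not. Exons of Psmd1 overlap Gm21972 and Htr2b. Psmd13, a lid subunit whose exons overlap Sirt3, had a median of 0.225 CPM in oocytes (highest 4.39), against 49.0 CPM in pools (lowest 30.0).

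As shares of all proteasome counts, the alpha ring made up a median of 50.0% in oocytes and 27.1% in pools. The ATPases made up 2.97% in oocytes and 17.1% in pools, the structural beta subunits (Psmb1 to Psmb4) 6.21% and 17.6%, and the catalytic beta subunits 2.86% and 12.1%. Non-ATPase subunits made up 30.6% in oocytes and 22.4% in pools, and assembly chaperones 6.82% and 2.35%. Per kb of exon, which allows genes to be ranked within a cell type, Psma7 came first in oocytes at a median of 280 CPM per kb and Psma2 second at 203. In pools Psmb5 came first at 358 CPM per kb and Psmb2 second at 287. The lowest gene in pools was Psmb11 at 0, and the lowest in oocytes were Psma8, Psmb8, Psmb9 and Psmb10, all at 0. Oocytes of the C57BL6 strain had the same gene first, Psma7 at 275 CPM per kb, and listed Psmb5 at 2.63.

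**Figure D1:**
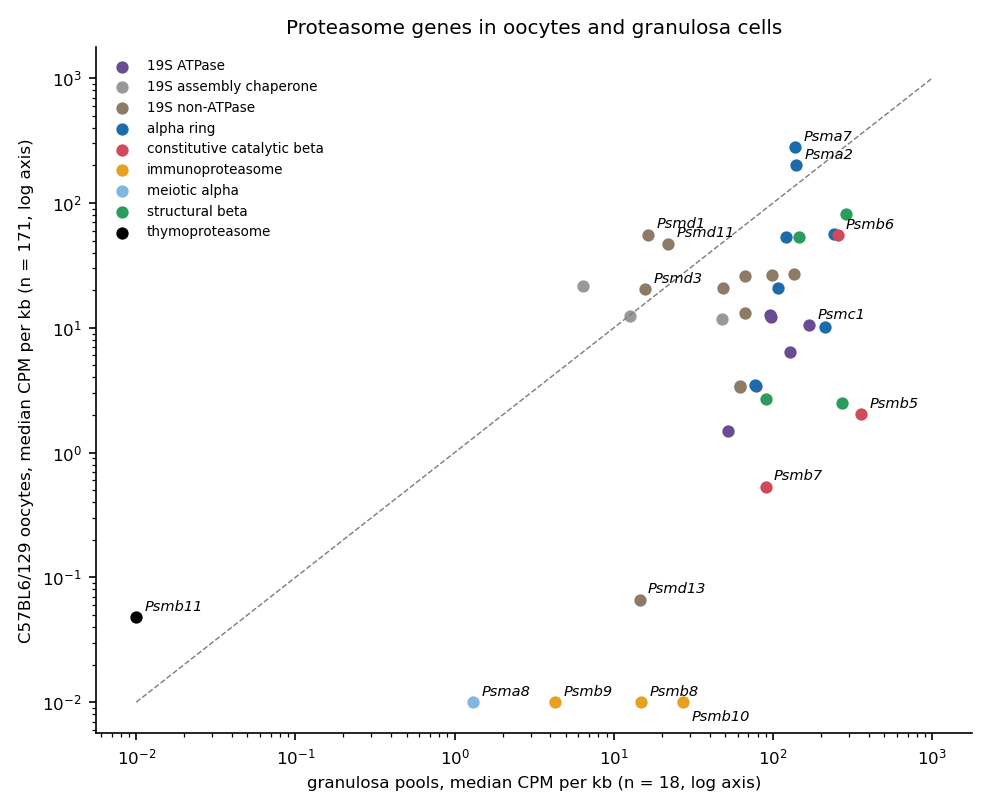
Median CPM per kb of exon of each of the 39 genes in C57BL6/129 oocytes (vertical axis, n = 171) against granulosa pools (horizontal axis, n = 18), both on log axes, coloured by role, with medians of 0 drawn at 0.01 and the dashed line marking equal levels. Most genes lie below the line, Psma7 (280 in oocytes, 138 in pools) lies above it, and Psmb5 (2.04 in oocytes, 358 in pools) and Psmb7 lie far below.

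The main comparison in granulosa cells asks what resveratrol did in old WT mice. Here and in the following comparisons a gene rose or fell if its adjusted p was under 0.05 in edgeR's quasi-likelihood test with Benjamini-Hochberg adjustment over the 17558 genes tested, fitted on all 18 pools. Levels are CPM scaled by TMM factors. Psmb11 was removed by the filter on low counts, which left 38 genes. In WT pools 5 of the 38 (13.2%) rose and 0 fell, against 1.62% of all genes that passed in either direction and 1.17% that rose. At an unadjusted p under 0.05 there were 25 of 38, against 16.9% of all genes. The median log2 fold change was 0.57 over the 38 genes and 0.01 over all genes, and 36 of the 38 were above 0. In the later comparisons, counts at an unadjusted p under 0.05 are given without the share of all genes. Those counts are not results about these genes.

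The 5 genes encode parts of the core particle. Psmb2, a structural beta subunit, had 465, 410 and 391 CPM in old WT pools with resveratrol, against 228, 237 and 257 CPM in old WT controls (log2 0.81 ± 0.17 SE, adjusted p = 0.0267). Psma5, an alpha subunit, had 444, 379 and 376 CPM with resveratrol, against 230, 241 and 260 CPM in controls (log2 0.72 ± 0.16, adjusted p = 0.0298). Psmb7 had 406, 398 and 377 CPM with resveratrol, against 224, 242 and 260 CPM in controls (log2 0.70 ± 0.16, adjusted p = 0.0369). In each of these genes the lowest treated pool stood well above the highest control. Psma2 had 787, 672 and 624.8 CPM with resveratrol, against 395, 428 and 441 CPM in controls (log2 0.72 ± 0.17, adjusted p = 0.0381). Psmb1, a structural beta subunit, had 648, 515 and 519 CPM with resveratrol, against 342, 350 and 347 CPM in controls (log2 0.70 ± 0.18, adjusted p = 0.0493). These groups did not overlap either. Exons of Psma5 overlap 1700010K24Rik on the opposite strand.

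**Figure D2:**
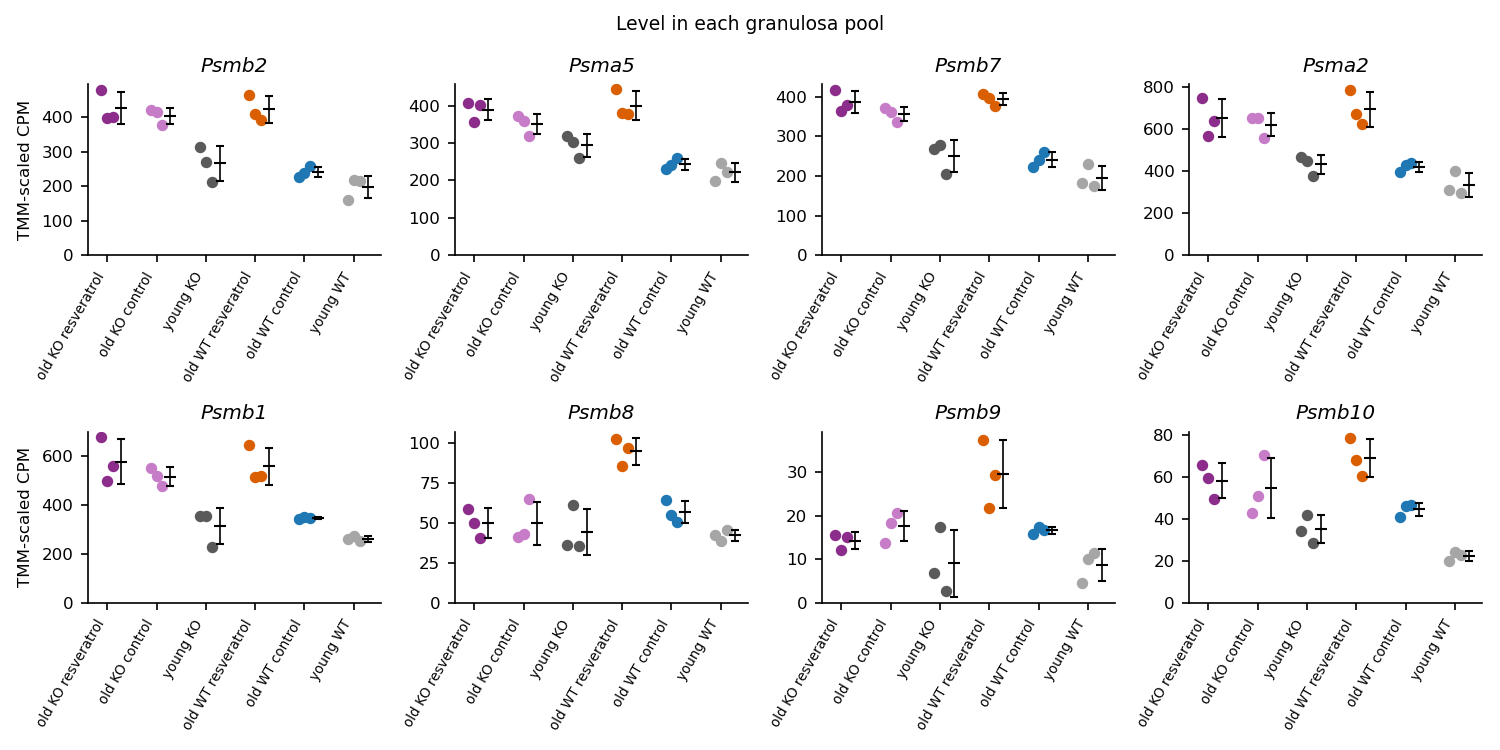
TMM-scaled CPM of 8 proteasome genes in each of the 18 granulosa pools (points), with the mean and SD of 3 pools as black bars, for knockout-labelled (KO) and wild-type (WT) mice. Psmb2, Psma5, Psmb7, Psma2 and Psmb1 are higher in old WT pools with resveratrol than in old WT controls without overlap, and Psmb8 and Psmb9 are highest in old WT pools with resveratrol.

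Ranges of the WT resveratrol and control pools did not overlap for 29 of the 38 genes. In 28 of these (73.7%) the treated pools were all higher, against 17.6% of all genes, and in 1 (2.63%) they were all lower, against 13% of all genes. The gene lower throughout was Psmd2, the other scaffold of the regulatory base, with 155, 256 and 235 CPM with resveratrol, against 322, 291 and 300 CPM in controls. Its log2 fold change of -0.50 did not pass. By role, the median log2 fold change was 0.72 over the 4 structural beta genes, 0.66 over the 7 alpha genes, 0.65 over the 3 catalytic genes and 0.74 over the 3 immunoproteasome genes. It was 0.46 over the 6 ATPases, 0.20 over the 11 non-ATPase subunits and 0.27 over the 3 assembly chaperones. The genes that passed thus came from the alpha, structural beta and catalytic beta groups, and whether the roles differ was not tested.

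The summed level of all 39 genes was 10490 ± 449 CPM in old WT pools with resveratrol and 7339 ± 280 CPM in old WT controls (SD, n = 3 each). The size of this gap depends on the TMM factors. As plain shares of counts it was smaller, with 0.951 to 1.01% with resveratrol, against 0.767 to 0.834% in controls. In the catalytic genes that missed the threshold, Psmb5 had 543, 507 and 465 CPM with resveratrol, against 302, 297 and 370 CPM in controls (adjusted p = 0.0741). Psmb6 had 532, 552 and 521 CPM with resveratrol, against 315, 290 and 420 CPM in controls (adjusted p = 0.116). Neither gene's groups overlapped. Of the immunoproteasome genes, Psmb8 had 102, 85.3 and 96.5 CPM with resveratrol, against 64.1, 55 and 50.5 CPM in controls (adjusted p = 0.0793). Psmb9 had 37.5, 21.8 and 29.4 CPM with resveratrol, against 15.8, 17.3 and 16.7 CPM in controls (adjusted p = 0.164). Psmb10 had 78.8, 68 and 60.6 CPM with resveratrol, against 40.8, 46.1 and 46.9 CPM in controls (adjusted p = 0.105). All treated pools were above all controls in these 3 genes as well, and none passed.

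Related genes outside the 39 were read from lists of their functions. Of 10 tested regulators and further subunits, Sem1, a small lid subunit, rose (log2 0.80 ± 0.17, adjusted p = 0.0257), and of 9 presentation genes B2m, the light chain of class I molecules, rose (log2 1.107 ± 0.23, adjusted p = 0.0238). None of 5 assembly factors, 7 transcription factors and 18 ubiquitin genes passed, and Pomp, the core maturation factor, had a log2 fold change of 0.60 (adjusted p = 0.114). Macrophage and leukocyte markers moved with this comparison. All 17 had counts in both groups and summed to 0.0233 to 0.0403% of counts with resveratrol, against 0.0128 to 0.0177% in controls, and 7 of the 17 rose. C1qa, C1qb and Itgam were at 0 in control pool 1, Aif1 in control pool 3 and Itgam in treated pool 1. Their part in the proteasome result was not tested.

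The count of 5 depended on the libraries and on the fit. It was 0 with libraries thinned to 1 depth, 1 with no filter on low counts, 2 with RLE factors and 14 by DESeq2, against 0.114, 1.67, 0.94 and 4.69% of all genes. Leaving out any 1 of the 6 pools (old WT resveratrol 1, 2 or 3, old WT control 1, 2 or 3) left 0 genes past the threshold, with a median log2 fold change of 0.48 to 0.56 over the tested proteasome genes. Leaving out the 5 shallow libraries gave 19 genes past it, against 4.83% of all genes, and fitting only these 6 pools gave 23, against 11.3%. In knockout-labelled mice the same treatment gave 0 of 38 in either direction (0 at an unadjusted p under 0.05, 0 by DESeq2), against 0.0285% of all genes (0.0114% higher, 0.0171% lower), and a median log2 fold change of 0.03. The lowest p-values there belonged to Psmd2 (log2 -0.29) and Psmd1 (log2 -0.19). The difference between the genotypes in the response had a median of -0.46 over the 38 genes, against -0.03 over all genes, with 35 below 0. By edgeR, 0 of the 38 passed the test of this difference, against 0.159% of all genes (0.0114% higher, 0.148% lower), and DESeq2 called 0. The 13 with an unadjusted p under 0.05 are given without the share of all genes. Psmb2 had the lowest p (log2 -0.74 ± 0.24, adjusted p = 0.385).

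**Figure D3:**
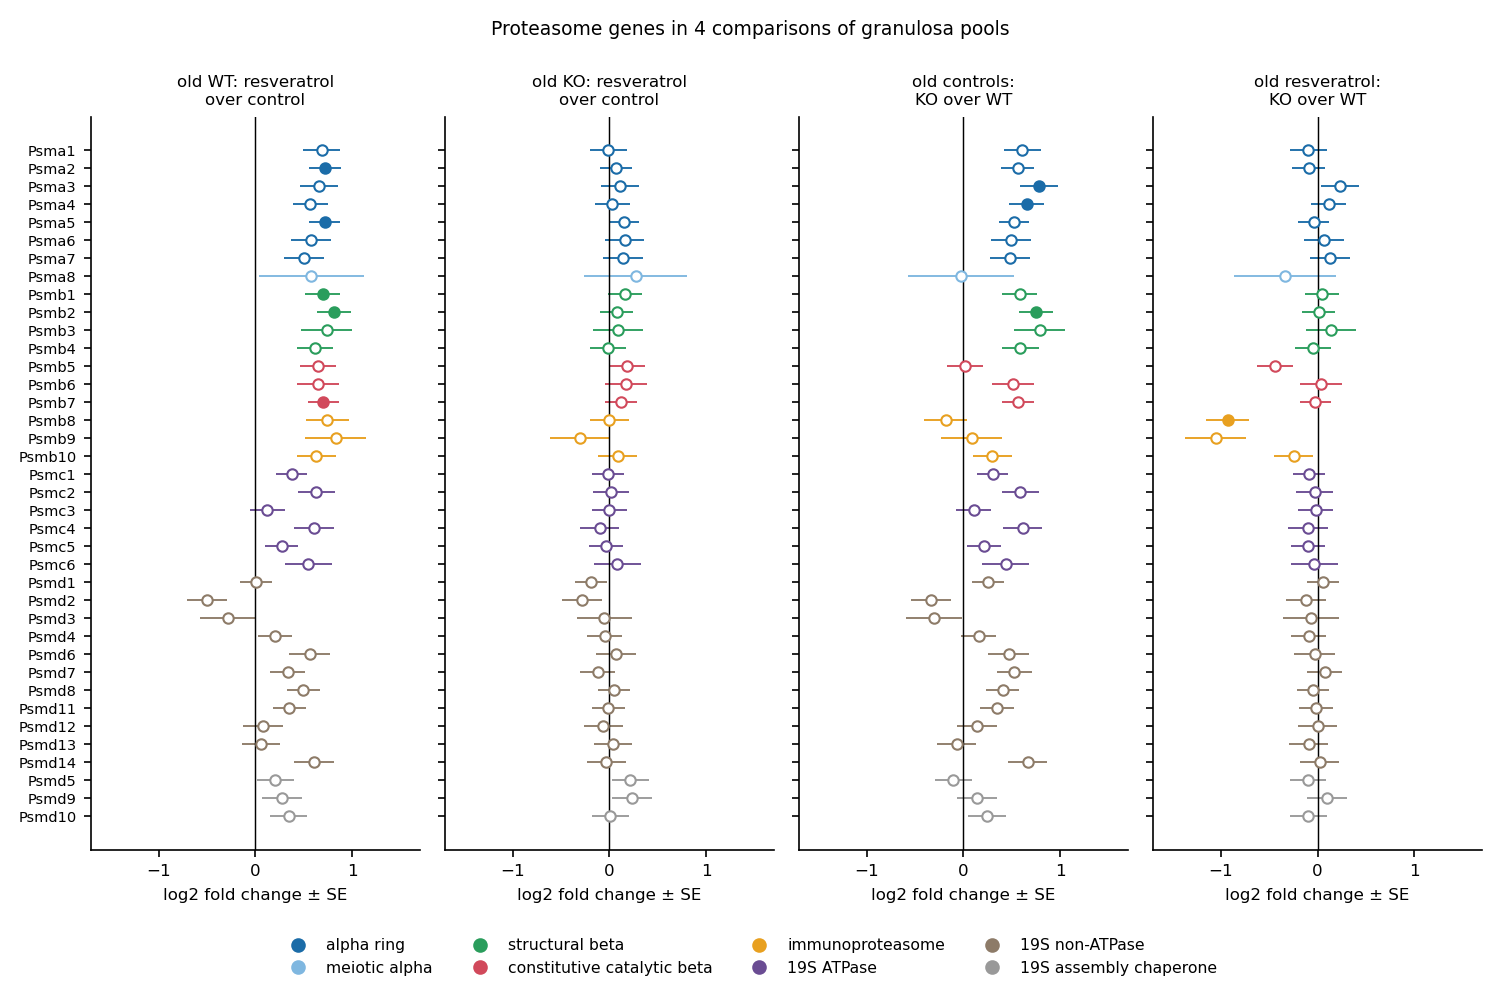
Log2 fold change ± SE of the 38 tested proteasome genes in 4 comparisons of old granulosa pools (3 against 3 each), ordered and coloured by role, with filled points for an adjusted p under 0.05. With resveratrol 36 of 38 genes lie right of 0 in WT pools and 22 of 38 in knockout-labelled (KO) pools, and Psmb8 (-0.93) is the only filled point left of 0, among resveratrol-treated mice.

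Among old controls the knockout-labelled pools were compared with WT pools. Of the 38 genes 3 (7.89%) rose and 0 fell, against 3.86% of all genes that passed in either direction, 2.83% that rose and 1.03% that fell. This comparison and the previous one share the old WT control pools. Psmb2 had 419, 415 and 377 CPM in old knockout-labelled controls, against 228, 237 and 257 CPM in old WT controls (log2 0.75 ± 0.17, adjusted p = 0.0162). Psma3, an alpha subunit, had 449, 435 and 307 CPM in knockout-labelled controls, against 220, 258 and 214 CPM in WT controls (log2 0.78 ± 0.20, adjusted p = 0.0277). Psma4, another alpha subunit, had 321, 332 and 262 CPM in knockout-labelled controls, against 192, 201 and 189 CPM in WT controls (log2 0.65 ± 0.18, adjusted p = 0.0454). The ranges did not overlap for any of the 3. Reads of Psma4 and the overlapping AY074887 cannot be told apart.

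Over all 38 genes the median log2 fold change was 0.42, against 0.06 over all genes. For 22 of the 38 (57.9%) all knockout-labelled controls were above all WT controls, against 16.7% of all genes, and for 0 they were all below, against 11.1%. The summed level was 9921 ± 236 CPM in old knockout-labelled controls and 7339 ± 280 CPM in old WT controls (SD, n = 3 each). As plain shares of counts, without TMM factors, the gap was smaller, with 0.912 to 0.973% against 0.767 to 0.834%. The immunoproteasome genes did not share the higher level, with log2 fold changes of -0.18 for Psmb8, 0.08 for Psmb9 and 0.30 for Psmb10, none past the threshold. Psmb5 was at 0.02, while Psmb6 was at 0.51 (adjusted p = 0.207) and Psmb7 at 0.56 (adjusted p = 0.0545). From these lists Sem1 rose (log2 0.78 ± 0.17, adjusted p = 0.0105), as did Psme2, a subunit of the proteasome activator induced by interferon (log2 0.69 ± 0.19, adjusted p = 0.0466), and Ubb, a polyubiquitin gene (log2 0.69 ± 0.17, adjusted p = 0.0261). Psme2 has a near-identical copy, Psme2b, with which it may share reads.

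Macrophage and leukocyte markers differed strongly in this comparison. They summed to 0.136 to 0.175% of counts in old knockout-labelled controls, against 0.0128 to 0.0177% in old WT controls, and 14 of the 17 rose. In knockout-labelled pools 0 of the 17 markers were at 0, and in WT control pool 1 C1qa, C1qb and Itgam were. Their part in the result was not tested. Leaving out knockout-labelled control 1 or 2, or WT control 1, 2 or 3, left 0 proteasome genes past the threshold, and leaving out knockout-labelled control 3 left 3. The share of all genes was not set beside that count of 3. Leaving out the shallow libraries gave 13, against 6.46% of all genes, and fitting only the 6 pools gave 12, against 7.11%. Thinning to 1 depth left 0, against 1.8%, RLE factors 2, against 3.54%, and DESeq2 gave 10, against 5.88%.

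**Figure D4:**
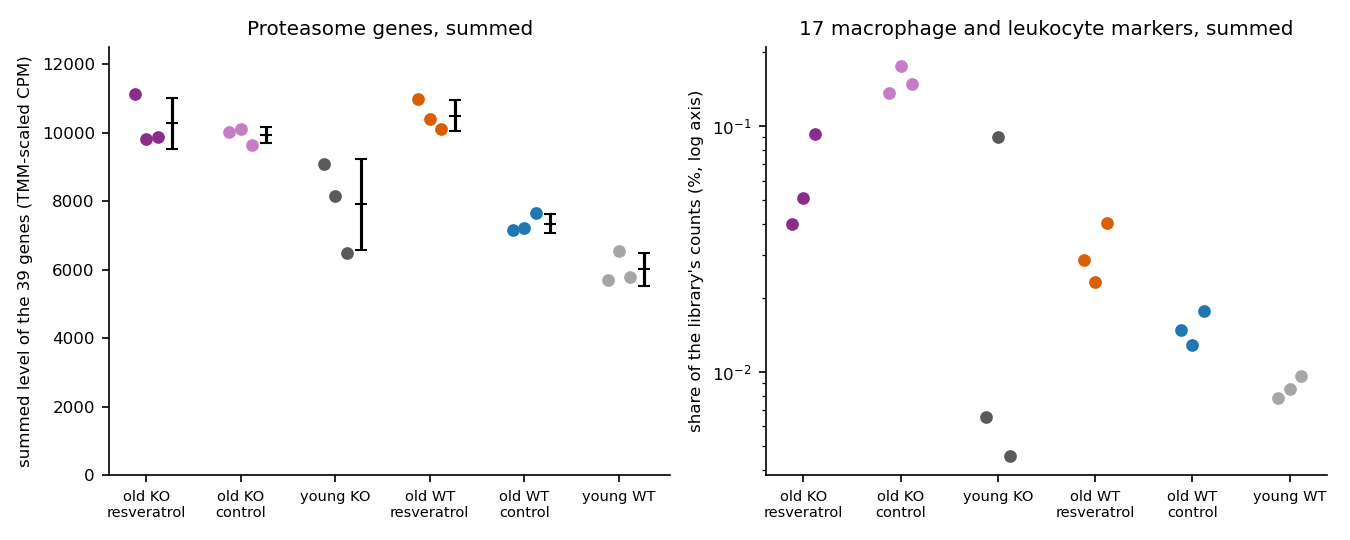
Summed TMM-scaled CPM of the 39 proteasome genes (left, with mean and SD of 3 pools as black bars) and summed share of counts of 17 macrophage and leukocyte markers (right, log axis) in each granulosa pool, for knockout-labelled (KO) and wild-type (WT) mice. Old WT controls average 7339 CPM, below old WT pools with resveratrol (10490) and both old KO groups (10272 with resveratrol, 9921 in controls), and marker shares are highest in old KO controls.

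Among resveratrol-treated old mice 1 immunoproteasome gene passed between the genotypes. Of the 38 genes 1 (2.63%) fell and 0 rose, against 1.07% of all genes that passed, 0.427% that fell and 0.638% that rose. A single call is not a result about the 38 genes as a set. Psmb8, the inducible chymotrypsin-like subunit, had 58.9, 50.0 and 40.2 CPM in knockout-labelled pools with resveratrol, against 102, 85.3 and 96.5 CPM in WT pools with resveratrol (log2 -0.93 ± 0.22, adjusted p = 0.0382). Psmb9, which takes the place of Psmb6 in the immunoproteasome, had 15.6, 12.1 and 15.1 CPM in knockout-labelled pools, against 37.5, 21.8 and 29.4 CPM in WT pools (log2 -1.05 ± 0.31, adjusted p = 0.128). Neither gene's groups overlapped. The test of the genotype difference in the response to resveratrol gave log2 -0.74 ± 0.31 (adjusted p = 0.552) for Psmb8 and -1.13 ± 0.44 (adjusted p = 0.50) for Psmb9. This comparison also shares its WT pools with the first one.

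In the same comparison 3 genes (7.89%) were lower in all knockout-labelled pools, against 8.65% of all genes, and 0 were higher in all, against 10.5%. The median log2 fold change was -0.04 over the 38 genes and 0.03 over all genes. Psmb10 was at -0.25 (adjusted p = 0.783), Psmb5 at -0.44 (adjusted p = 0.38), Psmb6 at 0.04 and Psmb7 at -0.02. Of the 9 presentation genes 8 were below 0 and H2-D1, a class I heavy chain with near-identical relatives, fell (log2 -1.09 ± 0.25, adjusted p = 0.0312). Summed levels of the 39 genes were 10272 ± 752 CPM in knockout-labelled pools and 10490 ± 449 CPM in WT pools, both with resveratrol (SD, n = 3 each). Leukocyte markers summed to 0.0402 to 0.0926% of counts in knockout-labelled pools, against 0.0233 to 0.0403% in WT pools, with overlap, and 2 of the 17 rose. Their part in the Psmb8 result was not tested. The call for Psmb8 was kept without knockout-labelled pool 1 and lost without knockout-labelled pool 2 or 3 or WT pool 1, 2 or 3, which left 0 genes. Thinning to 1 depth also left 0, against 0.456% of all genes.

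Age was compared within each genotype, on control pools, old against young. In WT pools DESeq2 called 1 of 38 genes, against 3.05% of all genes. By edgeR 0 passed, against 1.53% of all genes. The 7 at an unadjusted p under 0.05 are given without the share of all genes. The lowest p belonged to Psmb10, with 40.8, 46.1 and 46.9 CPM in old WT controls, against 19.7, 24.3 and 22.7 CPM in young WT pools (log2 1.01 ± 0.27, adjusted p = 0.0623). Psma4 had 192, 201 and 189 CPM in old WT controls, against 102, 128 and 121 CPM in young WT pools (log2 0.74 ± 0.20, adjusted p = 0.0628). The groups did not overlap in either gene. The median log2 fold change was 0.29 over the 38 genes and 0.17 over all genes, and 17 genes (44.7%) were higher in every old pool, against 23.8% of all genes, while 1 (2.63%) was lower in every one, against 8.01%. The summed level was 7339 ± 280 CPM in old WT controls and 6005 ± 473 CPM in young WT pools (SD, n = 3 each).

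In knockout-labelled pools 3 of 38 genes (7.89%) rose with age and 0 fell, against 5.17% of all genes that passed and 4.09% that rose. This share was near the background, so the count is not a result about these genes. Psmb1 had 555, 520 and 479 CPM in old knockout-labelled controls, against 355, 357 and 228 CPM in young knockout-labelled pools (log2 0.72 ± 0.18, adjusted p = 0.0226). Psma3 had 449, 435 and 307 CPM in old controls, against 208, 294 and 193 CPM in young pools (log2 0.76 ± 0.20, adjusted p = 0.029). Psmb2 had 419, 415 and 377 CPM in old controls, against 314, 271 and 213 CPM in young pools (log2 0.60 ± 0.18, adjusted p = 0.0486). All old pools were above all young pools in these 3 genes. Over the 38 genes the median was 0.25, against 0.10 over all genes, and 9 (23.7%) were higher in all old pools, against 15.4%, while 1 was lower in all, against 3.76%. Leaving out old control 1 or 2 or young pool 3 left 0, old control 3 left 2, young pool 1 gave 5, and young pool 2 gave 6. The share of all genes was not set beside these counts, so they are not results about these genes. RLE factors, thinning and a fit on these 6 pools alone each left 0, against 3.92, 4.06 and 0.68% of all genes. Only young pool 2 remains in its group once shallow libraries are left out, which gave 1 gene, against 3.89% of all genes, and 0 of the 3 genes above were among it. That fit takes the lone young pool to vary like the other groups.

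Depth and cell content differed between the ages. Leukocyte markers summed to 0.136 to 0.175% in old knockout-labelled controls, against 0.00654, 0.0904 and 0.00457% in young knockout-labelled pools 1, 2 and 3, and 7 of the 17 rose. In young WT pools 10 of the 17 markers had no count in any pool. Oocyte markers summed to 0.000162 to 0.000467% in old WT controls, against 0.00935 to 0.0258% in young WT pools, where Figla alone of the 11 was at 0 in all pools, and 5 of the 7 that were tested fell. In knockout-labelled pools they summed to 0.000106 to 0.000141% in old controls, against 0.0112, 2.59e-05 and 0.0159% in young pools 1, 2 and 3, and 6 of the 7 tested fell. Zp2 and Figla were at 0 in all of these pools. The part of these markers in the proteasome values was not tested. From the same lists, old pools of both genotypes had more Psmg4, an assembly chaperone of the alpha ring (log2 1.18 ± 0.28, adjusted p = 0.0367 in WT, and log2 1.08 ± 0.23, adjusted p = 0.00837 in knockout-labelled pools). Rps27a, which encodes ubiquitin fused to a ribosomal protein, rose in both as well (log2 1.09, adjusted p = 0.0393 in WT, and log2 1.501, adjusted p = 0.00168 in knockout-labelled pools). Psme1, an activator subunit, rose in WT (log2 0.85 ± 0.17, adjusted p = 0.0122). In knockout-labelled pools Sem1 (log2 1.05, adjusted p = 0.00142), Pomp (log2 0.84, adjusted p = 0.0199) and the pair Psme2 (0.68) and Psme2b (0.79) rose, while H2-K1, a class I heavy chain, fell (log2 -0.85, adjusted p = 0.0458). The test of the difference between genotypes in the age effect passed for 0 of 38 genes (0 by DESeq2), against 0.137% of all genes (0.0342% higher, 0.103% lower). The 2 at an unadjusted p under 0.05 are given without the share of all genes.

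Between young pools of the genotypes DESeq2 called 1 of 38 genes, against 0.74% of all genes. By edgeR 0 passed, against 0.114% of all genes (0.103% higher, 0.0114% lower). The 18 at an unadjusted p under 0.05 are given without the share of all genes, so they are not a result about these genes. The median log2 fold change was 0.41, against 0.12 over all genes, and 8 genes (21.1%) were higher in every young knockout-labelled pool, against 5.47%. Psma4 had 183, 253 and 171 CPM in young knockout-labelled pools, against 102, 128 and 121 CPM in young WT pools (log2 0.81 ± 0.20, adjusted p = 0.138). Psmc4, an ATPase, had 397, 251 and 183 CPM in young knockout-labelled pools, against 152, 188 and 148 CPM in young WT pools (log2 0.77 ± 0.22, adjusted p = 0.217). Groups did not overlap for Psma4 and overlapped for Psmc4. Leaving out young knockout-labelled pool 3 gave 3 genes past the threshold. No share of all genes was set beside this count, so it is not a result about these genes.

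In oocytes of C57BL6/129 mice no proteasome gene passed the test in any comparison. Because oocytes of 1 mouse are not independent, oocytes were added up within each of the 10 groups. The 10 totals were fitted with additive effects (5 residual degrees of freedom), and all 39 genes were among the 20806 tested. Each group gave 1 total, so these p-values rest on how far totals depart from the fitted effects, not on spread between oocytes or mice. Shares of all genes below are those past the adjusted threshold. Unadjusted counts in parentheses have no such share beside them and are not results about these genes. By edgeR, 0 of 39 passed for knockout (3 at an unadjusted p under 0.05), against 0.139% of all genes (0.0385% higher, 0.101% lower), and DESeq2 called 1, against 2.88%. For resveratrol 0 passed (3 unadjusted, 0 by DESeq2), against 0% of all genes. For middle-aged against young mice 0 passed (6 unadjusted, 0 by DESeq2), against 0%. For old against young mice 0 passed (4 unadjusted, 0 by DESeq2), against 0.00481%. For old against middle-aged mice 0 passed (6 unadjusted), against 0.00481%, and DESeq2 called 1, against 4.22%. For the treatment by genotype term 0 passed (0 unadjusted, 0 by DESeq2), against 0%. No gene of the lists of regulators, assembly factors, transcription factors, ubiquitin genes and presentation genes passed in these comparisons.

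Psmd3, a lid subunit whose exons overlap Gm12356, came closest in the genotype comparison (log2 -0.54 ± 0.11, adjusted p = 0.089). Its median was 115 CPM in young knockout oocytes and 145 CPM in young WT oocytes. With resveratrol it was 88.7 CPM in middle-aged knockout and 121 CPM in middle-aged WT oocytes, and 75.7 CPM in old knockout and 105 CPM in old WT oocytes. In controls it was 89.1 CPM in middle-aged knockout and 111 CPM in middle-aged WT oocytes, and 87.7 CPM in old knockout and 90.7 CPM in old WT oocytes. The knockout median was lower in each of these 5 pairs, and single oocytes of the groups overlapped in all 5. Some of these groups split into unlike subgroups, as given below. Psmb7 had a log2 fold change of 0.70 ± 0.25 (adjusted p = 0.296) at very low levels, with medians of 1.62 to 4.58 CPM over the knockout groups, against 1.118 to 1.81 CPM over the WT groups. Among old oocytes with resveratrol its median was 1.62 CPM in knockout and 1.72 CPM in WT oocytes, and in the other 4 pairs the knockout median was higher.

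Psmb5 had the lowest p for age. Its median was 1.37 and 1.59 CPM in young knockout and young WT oocytes. It was 2.18, 4.29, 2.74 and 2.397 CPM in middle-aged knockout with resveratrol, knockout control, WT with resveratrol and WT control oocytes. It was 1.099, 0.925, 2.07 and 1.48 CPM in the old groups in the same order. The middle-aged medians were the highest, and all groups overlapped (old against middle-aged log2 -1.29 ± 0.30, adjusted p = 0.113, middle-aged against young log2 1.32 ± 0.40, adjusted p = 0.502). Levels also differed within the middle-aged groups, as given below. For old against young oocytes the lowest p belonged to Psma1 (log2 0.47 ± 0.15, adjusted p = 0.238) and Psmd2 (log2 -0.46 ± 0.16, adjusted p = 0.257). For resveratrol it belonged to Psmd13 (log2 -1.54 ± 0.48, adjusted p = 1.00), whose medians were 0 to 1.56 CPM, and Psmb1 (log2 -0.35 ± 0.14, adjusted p = 1.00). Granulosa markers were highest where Psmb5, Psmb7 and Psmd13 were highest. In middle-aged knockout control oocytes all 10 had counts and summed to a median of 0.00989% (0.00194 to 0.0209%), against medians of 0.00406 to 0.00702% in the other 9 groups, and in 8 of those 9 groups 3 or more of the 10 were at 0 in all oocytes. Their part was not tested.

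**Figure D5:**
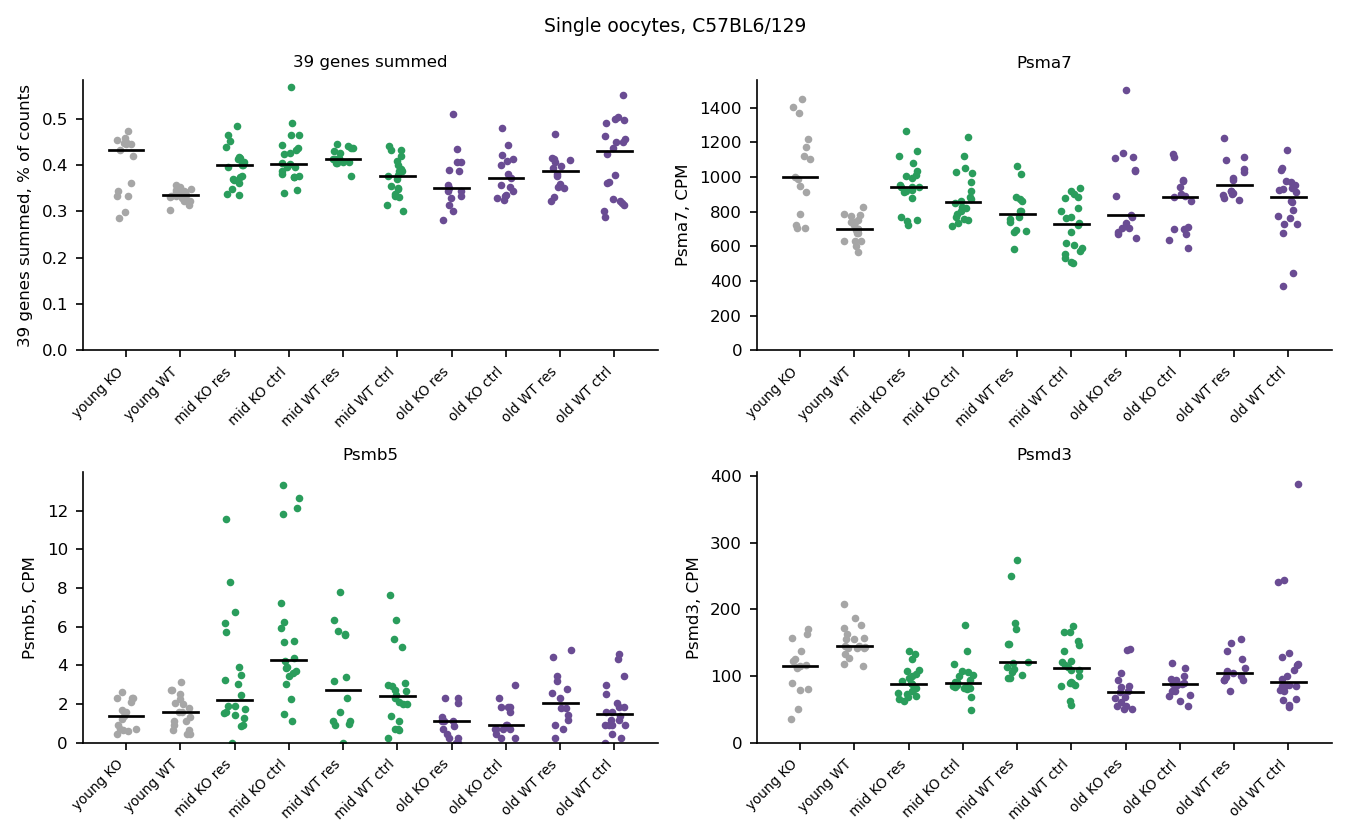
Summed share of counts of the 39 proteasome genes and CPM of Psma7, Psmb5 and Psmd3 in each of 171 single C57BL6/129 oocytes (points) by age (mid, middle-aged), genotype (KO, knockout) and treatment (res, resveratrol, and ctrl, control), with group medians as black bars. Group medians of the summed share lie between 0.335% (young WT) and 0.434% (young KO), all pairs of groups overlap except young WT (at most 0.358%) and middle-aged WT with resveratrol (at least 0.377%), and Psmb5 medians are highest in middle-aged oocytes.

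The summed share had a median of 0.434% in young knockout oocytes and 0.335% in young WT oocytes. Over the 8 middle-aged and old groups the medians ran between 0.351% (old knockout with resveratrol) and 0.431% (old WT control). Column names of the oocyte table carry a further number of unstated meaning that splits the 10 groups into 26 subgroups. Old WT control oocytes fell apart along it, with 0.425 to 0.551% in the first subgroup (11 oocytes) and 0.288 to 0.379% in the second (9 oocytes), with no overlap. In subgroup sums Psmd3 had 173 and 73.8 TMM-scaled CPM in old WT controls, against 93.8, 79.9 and 92.4 CPM in old knockout controls. It had 66.1 and 129 CPM in young knockout subgroups, against 170, 165, 129 and 118 CPM in young WT subgroups. Spread between such subgroups is hidden in the sums.

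Summing by these 26 subgroups, an alternative chosen after seeing the data, changed the calls. With 37 of the 39 genes tested, 4 (10.8%) passed for knockout, against 8.26% of all genes. Psmd3 fell (log2 -0.54 ± 0.12, adjusted p = 0.00554), while Psmc1 (log2 0.39 ± 0.11, adjusted p = 0.0252), Psmb7 (log2 0.72 ± 0.21, adjusted p = 0.0318) and Psma6 (log2 0.29 ± 0.09, adjusted p = 0.0407) rose. For middle-aged against young oocytes 6 (16.2%) rose, against 3.22% of all genes: Psmd5, Psmb1, Psmb2, Psmb3, Psmb5 and Psma5, by log2 0.48 to 1.51. For old against middle-aged oocytes 6 (16.2%) passed, against 16.1%, of which Psmb5 (log2 -1.45), Psmd13, Psmb7, Psmb1 and Psmd4 fell and Psmc1 rose. For old against young oocytes 4 (10.8%) passed, against 12.4%, and for resveratrol 0 did. The shares for knockout, old against middle-aged and old against young oocytes were near the background and are not a result about these genes. What a subgroup stands for is not known, and young WT subgroups 3 and 4 held 2 and 1 oocytes. Subgroups may not be independent of each other, so the p-values of this fit are uncertain. The 6 calls for middle-aged against young oocytes are therefore not a result either.

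In C57BL6 oocytes each group gave 1 sum, so no test was made, and intervals cover counting error only. Genes with 10 counts or more in either sum numbered 35 of 39. With resveratrol 3 of the 35 were over 1.5-fold higher than in old controls, against 14.1% of all genes, and 1 was lower by as much, against 9.67%. The median log2 ratio was 0.16, against 0.02 over all genes. Psmb2 had 117 to 295 CPM (median 165) in old oocytes with resveratrol, against 61.4 to 137 CPM (median 108) in old controls, a log2 ratio of 0.68 (95% Poisson interval 0.63 to 0.73). Psma5 had 79.9 to 156 CPM (median 113) with resveratrol, against 42.9 to 106 CPM (median 76.2) in controls, a log2 ratio of 0.58. Both genes overlapped between groups. At the other end of the genes at 50 CPM or more were Psmd2 at log2 -0.13 and Psmb3 at -0.12.

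Psmb4 had 436 counts with resveratrol and 140 in controls (log2 0.99, interval 0.72 to 1.28), and Psmd13 had 31 counts with resveratrol and 1 in controls (log2 3.75, interval 1.72 to 9.66). With Psmb2 these were the 3 genes past 1.5-fold, and Psmb11 was the gene past it in the other direction, with 20 counts with resveratrol and 28 in controls (log2 -1.12). The summed share was 0.334 to 0.463% (median 0.395%) in old oocytes with resveratrol, against 0.292 to 0.352% (median 0.340%) in old controls, with overlap. Of the catalytic genes Psmb5 was at log2 0.25, Psmb6 at 0.16 and Psmb7 at 0.49. Immunoproteasome genes were at the floor, with 8, 3 and 3 counts for Psmb8, Psmb9 and Psmb10 with resveratrol and 1, 2 and 4 counts in controls.

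For old against middle-aged C57BL6 controls 7 of 35 genes were over 1.5-fold higher, against 25.6% of all genes, and 2 were lower by as much, against 13.9%. The median log2 ratio was 0.13, against 0.11 over all genes. Psma5 had 42.9 to 106 CPM (median 76.2) in old oocytes, against 14.8 to 98.3 CPM (median 35.3) in middle-aged oocytes (log2 0.96, interval 0.87 to 1.04). Psmd3 had 47.5 to 83.5 CPM (median 59.7) in old oocytes, against 76.5 to 182 CPM (median 115) in middle-aged oocytes (log2 -0.93, interval -1.003 to -0.87). Oocytes overlapped for both. Psma4 at log2 0.57 and Psmd5 at -0.45 followed among genes at 50 CPM or more. Chosen after its values were seen, Psmc1, an ATPase, had 37.3 to 53.3 CPM in old oocytes, against 12.1 to 29.2 CPM in middle-aged oocytes, without overlap (log2 1.16). In C57BL6/129 oocytes the same contrast of sums gave Psmc1 a log2 fold change of 0.48 (adjusted p = 0.213), Psmd3 one of -0.14 (adjusted p = 0.613), and Psmb7, at log2 1.28 in C57BL6 oocytes (140 counts in old and 66 in middle-aged), was at -0.60 (adjusted p = 0.325). The summed share was 0.292 to 0.352% (median 0.340%) in old controls, against 0.275 to 0.371% (median 0.323%) in middle-aged controls, with overlap.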

How the data were processed

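The authors deposited raw read counts of 53619 genes in 217 libraries. Tools listed in the submitters' processing notes are featureCounts, HISAT2 2.1.0 and DESeq2, with the build mm10, and their roles, the annotation and the use of strand are not given in the sources used here. The labels' protocols describe Smart-seq2 libraries read as 150 bp pairs. Granulosa pools hold 500 cells per the series text and 50 per the labels' protocols.

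The 18 granulosa pools were fitted together with edgeR 4.0.16 (R 4.3.3; TMM factors, filterByExpr with a minimum count of 10, quasi-likelihood test, Benjamini-Hochberg threshold 0.05). Oocyte counts were summed to 10 groups and fitted with additive terms for age, genotype and treatment. C57BL6 sums were compared as log2 ratios with 0.5 counts added and exact Poisson 95% intervals, which cover counting error only. DESeq2 1.42.0, RLE factors, no filter, a replicate block, thinning to 470647 counts, fits on the contrast's groups, leaving out shallow libraries and leaving out each replicate were tried. The scripts were tested on simulated data. Named genes were those past the threshold with the lowest p-values (up to 6 per comparison, or the 2 lowest if none passed), Psmb5 to Psmb10, genes under 1 CPM and the extremes per kb. The C57BL6 resveratrol columns were matched to samples by their last number, except 1 matched to its group only. Members and lists were chosen with earlier results of these data known.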

Additional observations from a re-analysis of the deposited data

Results flagged for a closer look

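Single oocytes far from the others were looked for in the old C57BL6 groups with resveratrol (10) and without it (6), the only oocyte groups of 4 to 10. Genes at a median of 50 CPM or more and the summed share gave 36 checks, of which 3 stood out by Dixon's criterion, and chance alone gives about 1 in 20. The old group with resveratrol held 1 oocyte with 295 CPM of Psmb2, above the other 9. The old control group held 1 oocyte with 102 CPM of Psma1 and 1 oocyte with a summed proteasome share of 0.292%, each below the other 5.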

How the results depend on the processing

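No called gene changed direction under any alternative run, and counts of genes could not show a reversal. Of the settings for counts and summaries, 203 stayed within 1.5 times and 52 moved. The 203 include many counts of 0 that stayed 0, as in every leave-one-out fit of oocytes. Of the settings for single genes, 56 kept the call and 100 lost it in the same direction. The cause was not tested. With RLE factors the count of genes past the threshold was 2 for resveratrol in WT pools and 0 for age in knockout-labelled pools, while the median log2 fold change with age over all genes was 0.07 in WT and 0.00 in knockout-labelled pools and that over the proteasome genes 0.19 and 0.13. With no filter it was 1 for resveratrol in WT, 3 for age in WT and 2 for genotype with resveratrol. The shares of all genes were 1.67, 2.42 and 1.9%. DESeq2 gave 14 for resveratrol in WT, 10 for genotype in old controls, 1 for age in WT and 1 for genotype in young pools, and in oocytes 1 for knockout and 1 for old against middle-aged. Fits on the contrast's groups gave 23 for resveratrol in WT and 12 for genotype in old controls, against 11.3 and 7.11% of all genes. They gave 3 for age in WT and 2 for genotype with resveratrol, against 7.56 and 2.43%, and 0 for age in knockout-labelled pools. The count for age in WT was near its share of all genes and is not a result about these genes. Thinning to 1 depth gave 0 for resveratrol in WT, age in knockout-labelled pools and both genotype comparisons of old pools. Without libraries under 1000000 counts the counts were 19 for resveratrol in WT, 13 for genotype in old controls and 2 for genotype with resveratrol. Of all genes 4.83, 6.46 and 1.61% passed in these fits. Subgroup sums, chosen after seeing the data, gave 4 for knockout, 6 for middle-aged against young, 4 for old against young and 6 for old against middle-aged. Leaving out 1 replicate gave 0 in each case for resveratrol in WT, 0 to 3 for genotype in old controls, 0 to 1 for genotype with resveratrol, 0 to 6 for age in knockout-labelled pools and 0 to 3 for genotype in young pools. These leave-one-out counts are given without the share of all genes. Shares for the RLE, DESeq2, thinned and subgroup counts stand with the comparisons above. Same-numbered pools did not deviate together (correlations -0.163 to 0.150 over 15 group pairs), so the numbers do not pair them. With a replicate block the count was 1 for resveratrol in WT, against 0.609% of all genes, and 0 for genotype with resveratrol. The 5 shallow young libraries limit the age comparisons, and oocyte genes at a few CPM rest on few counts each.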
